A study of Mus musculus with 7 samples.

Results

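The Rab GTPases of lung dendritic cells are described here across 3 groups of mice. Members were all genes whose symbol is Rab followed by a number and at most a letter and a further digit, measured by a probeset (a group of array probes summarised to a single value) that names a single gene, with the brightest probeset kept per gene. This rule gave 59 genes of the 19938 that could be named. The RefSeq gene table lists 59 such genes in the mouse, all of them measured, and 0 symbols needed updating.

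The cells were lung CD11b+ conventional dendritic cells (cDC2s), the antigen-presenting cells that take up inhaled material and carry it to lymph nodes, sorted as Cd11c+ Mhc2+ Cd11b+ Ly6c- Cd64- cells from female mice on the C57Bl/6 background. The 3 groups were wild type mice given PBS (2 arrays), wild type mice given 100 µg of house dust mite extract (2 arrays) and Irf3-deficient mice given the same extract (3 arrays), all taken after 12 hours. Each array held RNA pooled from 10 mice, so it shows the mean of a pool and not the spread between animals. Age and the nature of the Irf3 allele were not given in the sources used here, and no PBS-treated Irf3-deficient mice were analysed here, so an effect of the genotype alone cannot be told apart from an effect on the response to mite extract.

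Rab proteins are small GTPases that switch between a GTP-bound form, which sits on a membrane and recruits effectors, and a GDP-bound form that is kept soluble in the cytosol. Exchange factors load GTP, GTPase-activating proteins end the active state, and each Rab marks its own stretch of the route from endoplasmic reticulum through Golgi to the surface, or from the surface through early, recycling and late endosomes to lysosomes. In dendritic cells these routes carry antigen, MHC molecules, Toll-like receptors and secreted cytokines. Irf3 is a transcription factor that switches on interferon beta and other genes after sensing of microbial products.

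Irf3 itself stood at log2 levels of 9.48 and 9.56 in PBS-treated wild type, 9.59 and 9.57 in mite-treated wild type, and 8.26, 8.13 and 8.30 in Irf3-deficient arrays, and was lower in every library labelled Irf3-deficient. Markers of the sorted population were present: the 12 cDC2 markers had a mean log2 level of 12.51 to 12.52, 12.19 to 12.23 and 12.40 to 12.51 in the 3 groups, in that order. Of these 12, 5 fell and 1 rose in wild type after mite extract, and 5 were higher and 1 lower between the treated genotypes, the directions also seen for Rab31, Rab7b, Rab3d and Rab4a. Of 13 measured markers of monocytes and macrophages, 11 fell and 1 rose after mite extract in wild type, and 8 were higher and 2 lower in Irf3-deficient than in wild type cells after treatment. Their mean log2 level was 11.26 to 11.54 in PBS-treated wild type, 10.26 to 10.70 in mite-treated wild type and 10.91 to 11.06 in Irf3-deficient arrays. Of 6 measured markers of B cells and plasmacytoid dendritic cells, 2 rose and 0 fell in wild type. Their differences ran from -0.48 to 2.44, with a median of 0.04. Between the treated genotypes 0 were higher and 2 lower, with differences from -2.25 to 0.47 and a median of 0.02. The called markers had the directions also seen for Rab30 and Rab29, but the medians were small, so the list did not move as a whole. The mean log2 level of the 6 markers was 7.48 to 7.65, 7.86 to 8.05 and 7.50 to 7.54 in the 3 groups, and a mean follows its most changed marker. The part of these marker lists in the Rab results was not tested. In sorted pools, fewer cells of a type and less RNA per cell cannot be told apart. Nothing in the labels says that the pools of a group came from separate experiments, so the p-values measure the spread between these pools.

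All values below are log2 expression values or differences of them, and a gene "rose", "fell" or is called higher or lower only where limma's adjusted p (Benjamini-Hochberg over all 19938 genes) was under 0.05. An array level depends on its probes, so levels are compared between groups and not between genes. Paralogous Rabs are similar in sequence, and the sources used here do not say how far their probes cross-react.

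Mite extract changed 17 of the 59 Rab genes in wild type cDC2s (28.8%, against 17.6% of all genes). The count was 10 higher, which is 16.9% of members against 8.35% of all genes, and 7 lower, which is 11.9% against 9.23%. Between mite-treated Irf3-deficient and wild type cells 20 Rab genes differed (33.9%, against 19.7% of all genes), 9 higher (15.3% against 10.7% of all genes) and 11 lower (18.6% against 9.0%). Between mite-treated Irf3-deficient and PBS-treated wild type cells 6 were higher (10.2% against 5.89%) and 2 lower (3.39% against 4.91%), together 13.6% of members and 10.8% of all genes. Arrays of the 2 groups did not overlap for 21 higher and 11 lower members in the wild type comparison (52.6% of all genes did not overlap), for 18 and 14 between the treated genotypes (43.7% of all genes) and for 19 and 7 in the last comparison (39.1% of all genes), so a lack of overlap is common here. Brightness bears on the shares, since 54 of the 59 members lie outside the dimmest 25% of genes. Among the 14953 genes outside that part, 22.5% were called in the wild type comparison and 25.4% between the treated genotypes, against 31.5% and 37.0% of those 54 members. Between Irf3-deficient and PBS-treated wild type cells the shares were 14.0% of these genes and 14.8% of the 54 members. The differences in share were not tested. The median log2 difference over the 59 members was 0.05, 0.00 and 0.07 in the 3 comparisons, beside 0.03, 0.00 and 0.04 over all genes.

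The calls were spread over 25 members, and the other 34 passed in no comparison. The 3 comparisons share arrays with each other, so the calls are set side by side and not counted as separate evidence. Of the 25, 7 were higher after mite extract in wild type and lower in the treated Irf3-deficient cells (Rab8b, Rab9, Rab12, Rab21, Rab26, Rab29 and Rab30). A further 4 were lower in the first comparison and higher in the second (Rab3d, Rab4a, Rab7b and Rab31). The mite-treated wild type arrays enter these 2 comparisons with opposite sign, which favours opposite directions in any gene. Neither these patterns nor the count of 25 were set beside all genes, so they do not single out the Rab family. Rab22a was higher and Rab6b lower in all 3 comparisons. Changes were small: 2 members passed with at least a 2-fold difference in the wild type comparison, 2 between the treated genotypes and 3 between Irf3-deficient and PBS-treated wild type cells.

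**Figure D1:**
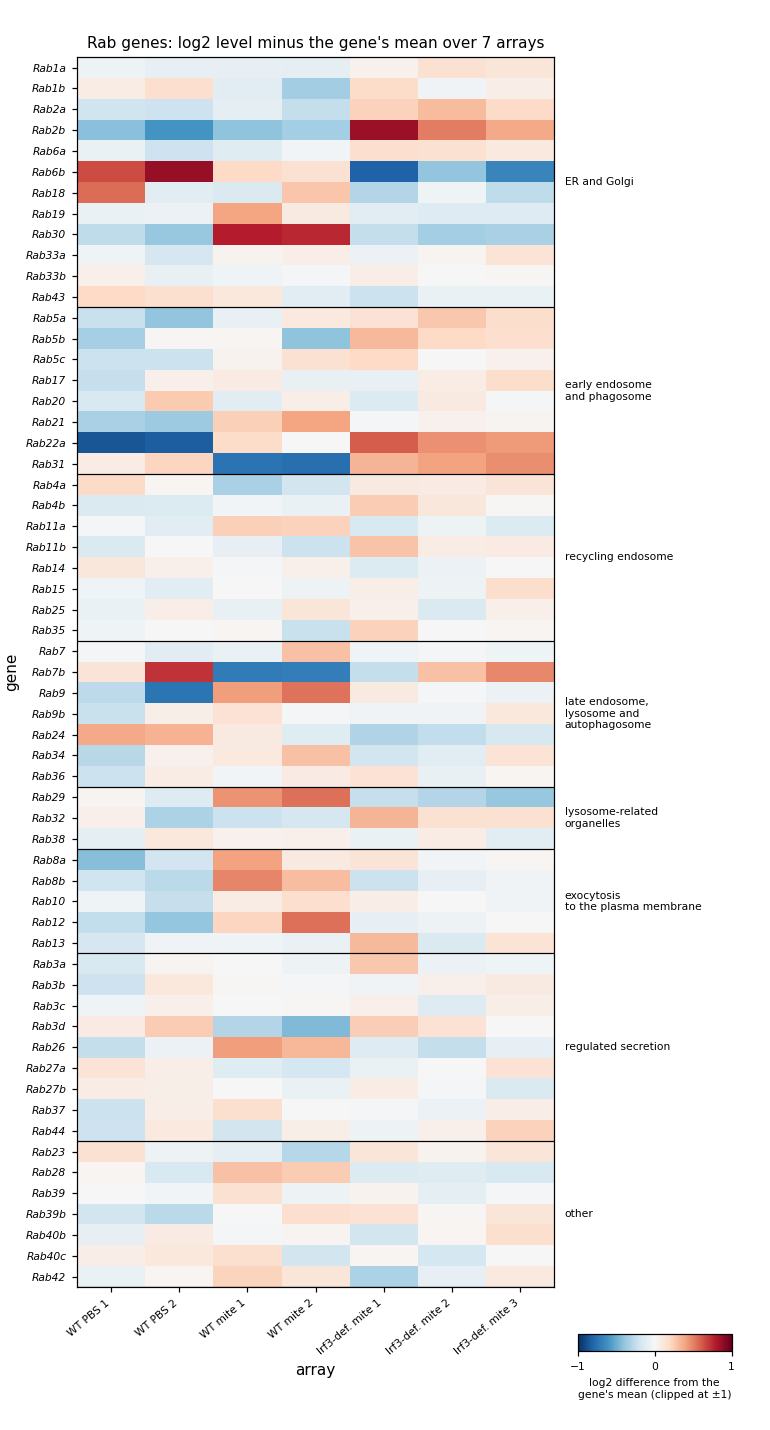
Log2 level of each of the 59 Rab genes (rows, grouped by the membrane route they serve) in each of the 7 arrays (columns), after subtraction of the gene's own mean over the 7 arrays. Rab30 stands out in the 2 mite-treated wild type arrays, Rab31 and Rab7b are lowest there, and Rab2b and Rab6b differ in the 3 Irf3-deficient arrays.

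Rabs of the endoplasmic reticulum and Golgi included the largest rise of the family in wild type, that of Rab30, and the largest fall against PBS-treated wild type in Irf3-deficient cells, that of Rab6b. Of the 12 members, 1 rose and 2 fell in wild type after mite extract (8.33% and 16.7%, against 8.35% and 9.23% of all genes). After treatment 2 were higher and 3 lower in Irf3-deficient than in wild type cells (41.7% together, against 19.7%). In Irf3-deficient cells 2 were higher and 1 lower than in PBS-treated wild type (16.7% and 8.33%, against 5.89% and 4.91%). Rab30, a Golgi Rab, stood at 8.30 and 8.18 in PBS-treated wild type, 9.34 and 9.31 in mite-treated wild type, and 8.32, 8.22 and 8.23 in Irf3-deficient arrays. Both mite-treated wild type arrays lay above all others, and the Irf3-deficient arrays overlapped with PBS-treated wild type. The rise was 2.12-fold (95% CI 1.80 to 2.51, adjusted p = 2.1e-05) and the Irf3-deficient level was 2.10-fold lower than in treated wild type (1.80 to 2.45, adjusted p = 1.27e-05). Against PBS-treated wild type, Irf3-deficient cells differed by 0.02 (95% CI -0.20 to 0.24).

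Rab2b showed another pattern. It stood at 9.03 and 8.85 in PBS-treated wild type and 9.05 and 9.11 in mite-treated wild type, but at 10.31, 9.96 and 9.83 in Irf3-deficient arrays. The wild type groups differed by 0.14 (95% CI -0.19 to 0.47), while Irf3-deficient cells were 1.93-fold above treated wild type (1.57 to 2.38, adjusted p = 0.000364) and 2.13-fold above PBS-treated wild type (1.73 to 2.63, adjusted p = 0.000413). Its paralog Rab2a, which like Rab2b acts at the Golgi and its border with the endoplasmic reticulum, was also higher in Irf3-deficient cells, by 0.41 ± 0.09 (SE) over treated and 0.46 ± 0.09 over PBS-treated wild type. A second Rab2a probeset gave 0.31 and 0.42 for the same differences. The first of these calls was lost without replicate 2 of mite-treated wild type (0.33, adjusted p = 0.0523) and the second without replicate 1 of PBS-treated wild type (0.46, adjusted p = 0.0527).

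Rab6b was lower in each comparison. This Golgi Rab, known as the form of Rab6 enriched in brain, stood at 9.16 and 9.38, then 8.71 and 8.66, then 7.70, 8.12 and 7.85, and no group overlapped with another. It fell by 0.58 ± 0.14 in wild type after mite extract (adjusted p = 0.0137), and was 1.74-fold lower again in Irf3-deficient cells (95% CI 1.43 to 2.12, adjusted p = 0.000907). Irf3-deficient cells had 2.61-fold less than PBS-treated wild type (2.14 to 3.18, adjusted p = 6.11e-05). The wild type fall was lost without replicate 2 of PBS-treated wild type (-0.47, adjusted p = 0.107) or replicate 2 of mite-treated wild type (-0.55, adjusted p = 0.0729). Some lung epithelial transcripts had group means in the same order, whether or not each step passed. The surfactant gene Sftpc had means of 13.09, 12.51 and 11.98 and Sftpb of 10.37, 9.67 and 9.38. Of the whole list of 10 epithelial markers, 4 fell and 0 rose in wild type. Between the treated genotypes 1 was higher and 1 lower, and the list did not share the order, with differences from -0.99 to 1.78 and a median of -0.04. The list had a mean level of 10.11 to 10.28, 9.70 to 10.01 and 9.78 to 9.95 in the 3 groups, and its part in the Rab6b result was not tested. The ubiquitous Rab6a had means of 10.92, 10.99 and 11.20 and passed in no comparison.

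Of the members with a promoter in the table, only Rab19 held an interferon-stimulated response element, the motif bound by interferon-activated factors and by IRFs, when searched as GAAA and GAAA with any 2 bases between them, on both strands of RefSeq promoters (250 bases before to 50 after each gene's start, GRCm38.p6). Promoters were given for 48 of the 59 members, and this motif was in 1 of 60 member promoters (1.67%) against 3.44% of all 32851 promoters. The Rab19 stretch is shown because it holds 2 overlapping matches, which the capitals mark, on the minus strand at chr6:39381336-39381365 (the gene lies on the plus strand).
Rab19 promoter: ggacagaGAAAGCGAAAGGGAAAcaagggc
Rab19 itself, a Golgi-associated Rab, stood at 7.54 and 7.55 in PBS-treated wild type, 8.0 and 7.70 in mite-treated wild type, and 7.50, 7.48 and 7.48 in Irf3-deficient arrays. The mite-treated wild type arrays were the highest but differed from each other. The wild type difference of 0.31 did not pass (adjusted p = 0.103), and the Irf3-deficient level was lower by -0.36 (adjusted p = 0.0306). That call was lost in 4 of the leave-one-out fits, without replicate 1 of mite-treated wild type (-0.22, adjusted p = 0.338) and without each of the Irf3-deficient arrays in turn (adjusted p from 0.066 to 0.0868). A match is a string of letters and says nothing of binding, and Rab30 was among the members with no promoter in the table.

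The remaining Rabs of this route moved little. Rab1b, which with Rab1a drives transport from endoplasmic reticulum to Golgi, fell by 0.35 ± 0.11 in wild type (adjusted p = 0.0477). Its call was lost without either PBS-treated array, without replicate 2 of mite-treated wild type and without replicate 2 or 3 of the Irf3-deficient group, with adjusted p from 0.0646 to 0.305. Rab1a had means of 12.51, 12.49 and 12.68, and Rab43, a Golgi Rab linked to cross-presentation in the other conventional dendritic cell subset, had means of 11.56, 11.37 and 11.26; neither passed in any comparison. The Golgi Rabs Rab33a and Rab33b, and Rab18 of lipid droplets and endoplasmic reticulum, did not pass either. Of these, Rab33a lies in the dimmest 25% of genes, where the arrays show changes poorly.

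Early endosome and phagosome Rabs were changed in both directions. Of 8 members, 3 rose and 1 fell in wild type after mite extract (37.5% and 12.5%, against 8.35% and 9.23% of all genes). Between the treated genotypes 2 were higher and 1 lower (37.5% together, against 19.7%). In Irf3-deficient cells 3 were higher and 0 lower than in PBS-treated wild type (37.5% against 10.8%). Rab31, which serves transport between the trans-Golgi network and endosomes, stood at 10.97 and 11.11, then 10.16 and 10.14, then 11.24, 11.30 and 11.36. The mite-treated wild type arrays lay below all others, while the Irf3-deficient arrays were slightly above PBS-treated wild type. The fall was 1.85-fold (95% CI 1.58 to 2.18, adjusted p = 7.62e-05), and Irf3-deficient cells were 2.22-fold above treated wild type (1.92 to 2.57, adjusted p = 4.25e-06). Against PBS-treated wild type the difference was 0.26 (adjusted p = 0.116). Most monocyte and macrophage markers, but not all, moved in the same directions in the first 2 comparisons, with the counts and levels given above. Their part in the Rab31 result was not tested.

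Rab22a, a relative of Rab31 that controls sorting from early endosomes back to the surface, moved the other way in wild type. Its levels were 9.92 and 9.95 in PBS-treated wild type, 10.96 and 10.77 in mite-treated wild type, and 11.38, 11.23 and 11.20 in Irf3-deficient arrays, with no overlap between any groups. It rose 1.90-fold after mite extract (95% CI 1.60 to 2.25, adjusted p = 0.000101) and was 2.52-fold above PBS-treated wild type in Irf3-deficient cells (2.16 to 2.95, adjusted p = 1.29e-05). The step between the treated genotypes, 0.41 ± 0.10 (adjusted p = 0.014), was lost without replicate 2 of mite-treated wild type (0.31, adjusted p = 0.147).

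Rab21, which returns internalised integrins, rose from 11.80 and 11.76 to 12.36 and 12.52, and stood between those groups in Irf3-deficient arrays at 12.11, 12.17 and 12.15. The wild type rise was 1.58-fold (95% CI 1.37 to 1.82, adjusted p = 0.000344). The 2 smaller differences also passed, with Irf3-deficient cells at -0.29 from treated (adjusted p = 0.0294) and at 0.36 from PBS-treated wild type (adjusted p = 0.0178). Both were lost in 4 of the leave-one-out fits: the first without replicate 2 of mite-treated wild type or any Irf3-deficient array (adjusted p from 0.0567 to 0.255), the second without either PBS-treated array or replicate 2 or 3 of the Irf3-deficient group (from 0.0604 to 0.101).

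The Rab5 proteins, which define early endosomes and recruit the tether Eea1, were close to the threshold. Rab5a stood at 10.90 and 10.73, then 11.05 and 11.22, then 11.27, 11.39 and 11.30, and differed by 0.32 in wild type (adjusted p = 0.0714), by 0.19 between the treated genotypes (adjusted p = 0.261) and by 0.51 ± 0.10 between Irf3-deficient and PBS-treated wild type cells (adjusted p = 0.00713, but 0.0737 without replicate 2 of PBS-treated wild type, at 0.42). Rab5c rose by 0.31 ± 0.10 in wild type (adjusted p = 0.0489), a call that was lost in 6 of the 7 leave-one-out fits, all but that without replicate 1 of the Irf3-deficient group, with adjusted p from 0.0552 to 0.245. Rab5b had means of 10.79, 10.76 and 11.18, and its difference of 0.42 between the treated genotypes missed the threshold (adjusted p = 0.0511). Rab20, a Rab of maturing phagosomes, had means of 9.95, 9.88 and 9.88, and Rab17, a Rab of epithelial transcytosis, of 7.30, 7.39 and 7.44, without passing.

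**Figure D2:**
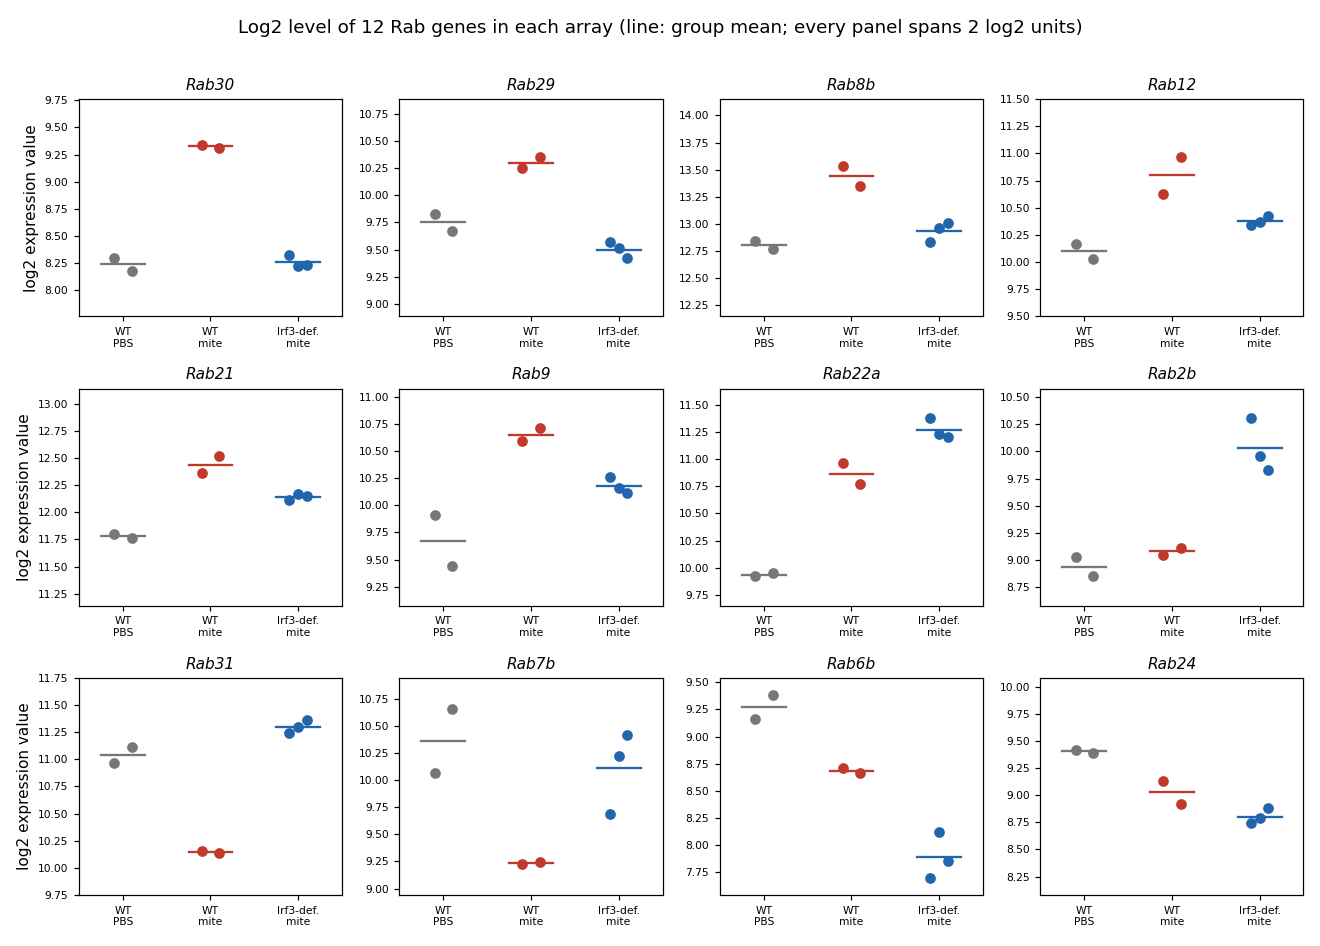
Log2 level of 12 Rab genes in each array (points) with the group mean (line), for PBS-treated wild type (n = 2), mite-treated wild type (n = 2) and mite-treated Irf3-deficient pools (n = 3). Every panel spans the same width of the log2 axis, and the mite-treated wild type arrays are highest for Rab30, Rab29, Rab8b, Rab12, Rab21 and Rab9 and lowest for Rab31 and Rab7b.

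Rabs of recycling endosomes return receptors and MHC molecules to the surface. Of 8 members, 0 rose and 1 fell in wild type (12.5%, against 17.6% of all genes). Between the treated genotypes 2 were higher and 1 lower (37.5% against 19.7%). None passed between Irf3-deficient and PBS-treated wild type cells (10.8% of all genes did), where 2 had an unadjusted p under 0.05. Rab4a, of the fast recycling route, stood at 8.53 and 8.36, then 8.02 and 8.16, then 8.43, 8.42 and 8.47. It was lowest in mite-treated wild type by about the same amount against both other groups, at -0.36 from PBS-treated wild type (adjusted p = 0.0483) and with Irf3-deficient cells 0.35 higher (adjusted p = 0.0313). The first call was lost in 6 of the 7 leave-one-out fits, all but that without replicate 2 of PBS-treated wild type (adjusted p from 0.0568 to 0.24), and the second in 5, without any mite-treated array (from 0.0622 to 0.214).

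The slow recycling Rabs Rab11a and Rab11b differed in direction. Rab11a stood at 10.54 and 10.46, then 10.80 and 10.79, then 10.41, 10.51 and 10.43, with Irf3-deficient cells lower than treated wild type (-0.35, adjusted p = 0.0228). That call was lost without either mite-treated wild type array or without replicate 3 of the Irf3-deficient group (adjusted p from 0.0706 to 0.0954). Rab11b was higher in Irf3-deficient cells by 0.30 (adjusted p = 0.0456), but a second, dimmer probeset gave -0.02, and the call was lost in each of the 7 leave-one-out fits (0.23 to 0.36, adjusted p from 0.0551 to 0.263). Rab14, which links recycling endosomes and Golgi, had means of 11.88, 11.82 and 11.73, and Rab35, of the fast recycling route, of 11.08, 11.00 and 11.18. Rab4b had means of 11.07, 11.17 and 11.34. None of these, nor Rab15 and the epithelial Rab25, passed in any comparison.

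Late endosome, lysosome and autophagosome Rabs held the largest fall of the family in wild type. Of 7 members, 1 rose and 2 fell after mite extract (42.9%, against 17.6% of all genes). Between the treated genotypes 1 was higher and 1 lower (28.6% against 19.7%). In Irf3-deficient cells 1 was higher and 1 lower than in PBS-treated wild type (28.6% against 10.8%). Rab7b, which moves cargo from late endosomes to the trans-Golgi network and is known to dampen Toll-like receptor 4 signalling, stood at 10.06 and 10.65, then 9.23 and 9.24, then 9.69, 10.22 and 10.41. Pools of the first and last group scattered widely, but all 5 lay above both mite-treated wild type arrays. The fall was 2.17-fold (95% CI 1.56 to 3.02, adjusted p = 0.00306) and Irf3-deficient cells were 1.83-fold above treated wild type (1.35 to 2.46, adjusted p = 0.00781). Most of the monocyte and macrophage markers moved in the same directions here as well, and their part was not tested.

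Rab9, which returns mannose 6-phosphate receptors from late endosomes to the Golgi, rose. It stood at 9.91 and 9.44 in PBS-treated wild type, 10.59 and 10.71 in mite-treated wild type, and 10.26, 10.16 and 10.11 in Irf3-deficient arrays, with the last group between the others and no overlap. The rise was 1.96-fold (95% CI 1.57 to 2.44, adjusted p = 0.000498). Irf3-deficient cells differed by -0.47 from treated (adjusted p = 0.025) and by 0.50 from PBS-treated wild type (adjusted p = 0.0315). The first of these was lost without either mite-treated wild type array or without replicate 2 or 3 of the Irf3-deficient group (adjusted p from 0.0515 to 0.15). The second was lost without replicate 2 of PBS-treated wild type, where it was 0.27 (adjusted p = 0.253), or without any Irf3-deficient array (from 0.0609 to 0.0821).

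Rab24, a Rab of autophagy, was lower in both mite-treated groups than in PBS-treated wild type. It stood at 9.42 and 9.39, then 9.13 and 8.92, then 8.74, 8.79 and 8.88, and the groups did not overlap. It fell by 0.38 ± 0.12 in wild type (adjusted p = 0.0465), and Irf3-deficient cells were 1.51-fold below PBS-treated wild type (95% CI 1.28 to 1.78, adjusted p = 0.00404). The difference between the treated genotypes, -0.22, did not pass (adjusted p = 0.21). The wild type call was lost without either PBS-treated array, without replicate 2 of mite-treated wild type, or without replicate 2 or 3 of the Irf3-deficient group (adjusted p from 0.0631 to 0.297).

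Rab7, the main Rab of fusion with lysosomes, stood at 12.29 and 12.19, then 12.24 and 12.60, then 12.27, 12.29 and 12.26. Its groups overlapped, and it differed by 0.18 in wild type (95% CI -0.07 to 0.42, adjusted p = 0.359) and by -0.14 between the treated genotypes (-0.37 to 0.08). Its mite-treated wild type pools lay apart, with only replicate 2 above all other arrays. Rab34, which positions lysosomes, had means of 7.41, 7.72 and 7.48 and did not pass, and neither did Rab9b or Rab36.

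Among Rabs of lysosome-related organelles, Rab29 and Rab32 differed between the treated genotypes in opposite directions. Rab29, a Golgi and lysosome Rab that recruits the kinase Lrrk2, stood at 9.83 and 9.67, then 10.25 and 10.35, then 9.57, 9.51 and 9.42. It was highest in mite-treated wild type and lowest in Irf3-deficient arrays. It rose by 0.54 ± 0.12 in wild type (adjusted p = 0.00593, but 0.0564 without replicate 2 of PBS-treated wild type, at 0.46), and was 1.74-fold lower in Irf3-deficient than in treated wild type cells (95% CI 1.48 to 2.04, adjusted p = 0.000207). Rab32, known for melanosomes and for defence against bacteria inside phagosomes, stood at 10.46 and 10.09, then 10.19 and 10.24, then 10.75, 10.56 and 10.56. It was higher in Irf3-deficient than in treated wild type cells by 0.41 (adjusted p = 0.0338), a call lost in 5 of the leave-one-out fits, without any mite-treated array (adjusted p from 0.0568 to 0.132). Its relative Rab38 had means of 6.89, 6.94 and 6.85 and did not pass.

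The next group holds Rabs of transport to the plasma membrane, together with Rab12, which is also known for a degradative route. Of 5 members 3 rose and 0 fell, with a median log2 difference of 0.56. Between the treated genotypes 0 were higher and 2 lower, with a median of -0.21. Both shares lay above those of all genes, 17.6% and 19.7%, but they rest on 5 genes and were not tested. None passed between Irf3-deficient and PBS-treated wild type cells (10.8% of all genes did), where 2 had an unadjusted p under 0.05. Without Rab12, 2 of 4 rose and 1 of 4, Rab8b, was lower. Rab8b stood at 12.84 and 12.77, then 13.53 and 13.35, then 12.83, 12.96 and 13.01. The Irf3-deficient arrays overlapped with PBS-treated wild type and lay below both mite-treated wild type arrays. It rose 1.55-fold (95% CI 1.35 to 1.79, adjusted p = 0.000446) and was 1.42-fold lower in Irf3-deficient cells (1.25 to 1.62, adjusted p = 0.00111).

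Its paralog Rab8a, which like Rab8b serves exocytosis from Golgi and recycling endosomes, stood at 11.82 and 12.06, then 12.65 and 12.34, then 12.38, 12.22 and 12.27. It rose by 0.56 ± 0.12 in wild type (adjusted p = 0.00615), a call lost without replicate 1 of either wild type group (0.43, adjusted p = 0.0806 without the PBS-treated array, and 0.41, adjusted p = 0.0541 without the mite-treated array). Between the treated genotypes its groups overlapped, at -0.21 (95% CI -0.45 to 0.03, adjusted p = 0.259). Whether the 2 paralogs differ from each other was not tested.

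Rab12, which directs transferrin receptor to degradation, stood at 10.17 and 10.03, then 10.63 and 10.97, then 10.34, 10.37 and 10.42. The 3 groups did not overlap, and Irf3-deficient arrays lay in the middle. It rose 1.63-fold in wild type (95% CI 1.34 to 1.97, adjusted p = 0.00204) and was lower in Irf3-deficient cells by -0.43 (adjusted p = 0.0221). The latter call was lost without replicate 2 of mite-treated wild type (-0.25, adjusted p = 0.28) or replicate 2 of the Irf3-deficient group (-0.42, adjusted p = 0.067). Rab10, which brings Toll-like receptor 4 and other cargo to the surface, had means of 12.47, 12.73 and 12.63 and did not pass (adjusted p = 0.0851 in wild type), and neither did Rab13 of epithelial junctions.

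Rabs of regulated secretion control the release of granules and exosomes. Of 9 members, 1 rose and 1 fell in wild type and 1 was higher and 1 lower between the treated genotypes. These shares, 22.2% and 22.2%, were near those of all genes, 17.6% and 19.7%. None passed between Irf3-deficient and PBS-treated wild type cells (10.8% of all genes did), where 0 had an unadjusted p under 0.05. Rab26, a Rab of secretory granules, stood at 7.74 and 7.92, then 8.40 and 8.31, then 7.85, 7.74 and 7.90. Both mite-treated wild type arrays were above the rest, which overlapped. It rose by 0.52 ± 0.12 (adjusted p = 0.00691, but 0.0588 without replicate 1 of PBS-treated wild type, at 0.43) and was lower in Irf3-deficient cells by -0.52 (adjusted p = 0.00364).

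Rab3d, the Rab3 form of non-neuronal secretory granules, had the reverse pattern at 9.36 and 9.53, then 8.98 and 8.83, then 9.52, 9.42 and 9.28. It fell by 0.54 ± 0.13 in wild type (adjusted p = 0.00959) and was higher by 0.50 ± 0.12 in Irf3-deficient cells (adjusted p = 0.00781). The fall was lost without replicate 2 of PBS-treated wild type (-0.46, adjusted p = 0.0774) or replicate 2 of mite-treated wild type (-0.47, adjusted p = 0.0792), and the second call without that same mite-treated array (0.43, adjusted p = 0.0819). Most monocyte and macrophage markers moved in the same directions as Rab3d and Rab4a too in these 2 comparisons, and their part was not tested. Rab27a, which docks lytic granules and exosomes and has been tied to antigen handling in dendritic cell phagosomes, had means of 9.15, 8.90 and 9.08 and did not pass (adjusted p = 0.186 in wild type). Rab3a, Rab3b, Rab3c, Rab27b, Rab37 and Rab44 did not pass either, and Rab3b, Rab3c and Rab27b lie in the dimmest 25% of genes, where the arrays show changes poorly.

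Among the 7 other members, Rab28, a Rab linked to cilia, stood at 8.47 and 8.30, then 8.75 and 8.71, then 8.32, 8.33 and 8.30. It was lower in Irf3-deficient than in treated wild type cells by -0.41 (adjusted p = 0.0122), and its wild type difference of 0.35 lay just outside the threshold (adjusted p = 0.0503). The call was lost without either mite-treated wild type array (-0.39, adjusted p = 0.0745, and -0.43, adjusted p = 0.0605). Rab23, Rab39, Rab39b, Rab40b, Rab40c and Rab42 passed in no comparison, and Rab42 also lies in the dimmest 25% of genes. For the 34 members without a call the log2 differences ran from -0.25 to 0.31 in wild type, from -0.27 to 0.42 between the treated genotypes and from -0.42 to 0.39 between Irf3-deficient and PBS-treated wild type cells. Their 95% confidence intervals reached from -0.59 to 0.62, from -0.65 to 0.72 and from -0.81 to 0.69, so differences within these intervals are not excluded for single genes.

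**Figure D3:**
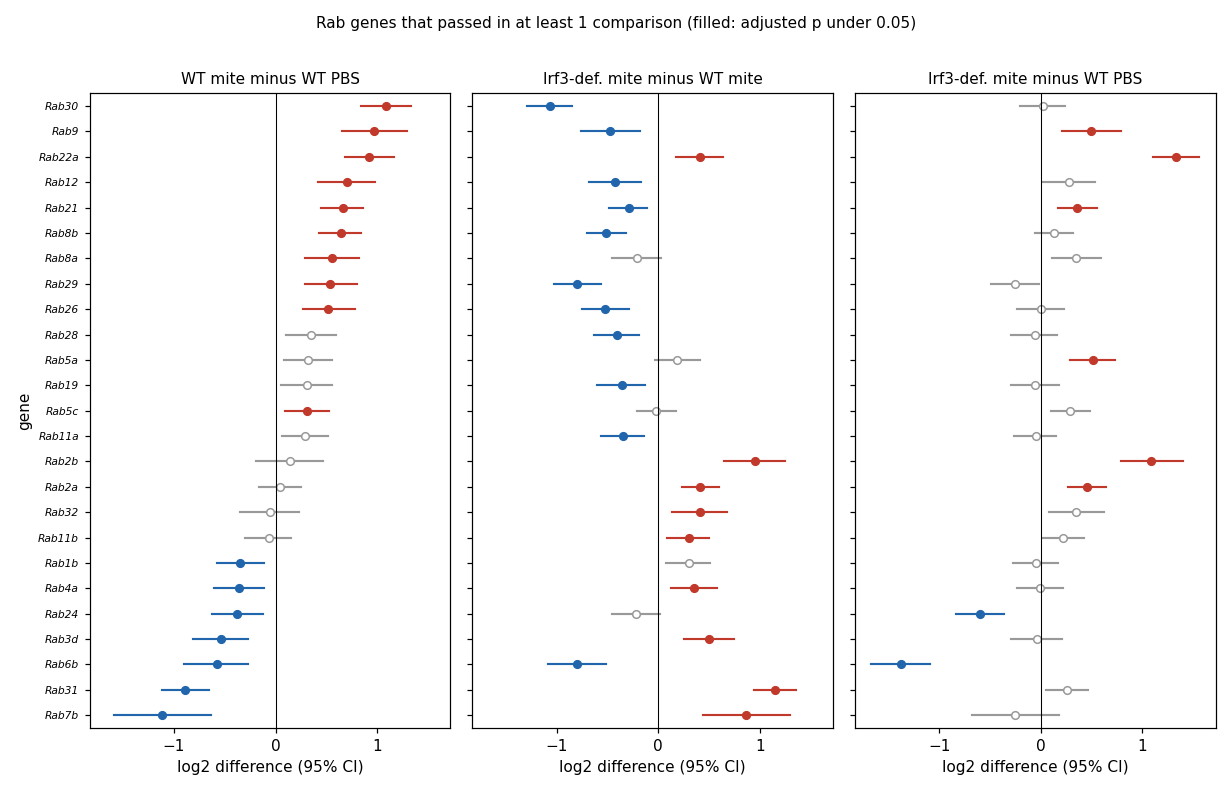
Log2 difference with its 95% confidence interval for the 25 Rab genes that passed in at least 1 of the 3 comparisons, ordered by the wild type difference, with filled points for adjusted p under 0.05 (red higher, blue lower). Rab30, at 1.09 and -1.07, and Rab31, at -0.89 and 1.15, have nearly mirrored differences in the first 2 comparisons, which share the mite-treated wild type arrays, while Rab22a and Rab6b keep their direction.

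The genes that switch and use Rabs changed in both directions as well. Of 36 measured exchange factors, 7 rose and 5 fell in wild type (19.4% and 13.9%, against 8.35% and 9.23% of all genes). Between the treated genotypes 7 were higher and 7 lower (38.9% together, against 19.7% of all genes). Against PBS-treated wild type 11.1% passed, near the 10.8% of all genes. Differences in share were not tested for this or the following lists. Ric1, a subunit of the exchange factor for Rab6, rose by 1.28 (adjusted p = 2.26e-05) and was lower by -0.90 in Irf3-deficient cells (adjusted p = 0.000205). Dennd3, the exchange factor of Rab12, rose by 0.73 (adjusted p = 0.00227) and was lower by -0.75 (adjusted p = 0.00098). Rab3ip, the exchange factor of Rab8 also known as Rabin8, rose and was lower by -0.62 in Irf3-deficient cells (adjusted p = 0.000951).

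Its relative Rab3il1 had the reverse pattern, with a fall of 0.90 (adjusted p = 0.000469) and a level 0.70 higher in Irf3-deficient cells (adjusted p = 0.00132). Mon1b, part of the Rab7 exchange factor, rose by 0.61 in wild type. Dennd4c, an exchange factor for Rab10, fell by 0.59 and Rinl, of the Rab5 exchange factor family, by a log2 difference of -0.56. Dennd10 was higher in Irf3-deficient cells by 0.85 over treated and by 0.89 over PBS-treated wild type, and Dennd11 by 0.66 and 0.43. Against PBS-treated wild type, 3 of the 36 were higher, the third being Rin2 at 0.49, and Hps4, part of the exchange factor for Rab32 and Rab38, was the 1 that was lower, at -0.56.

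GTPase-activating proteins end Rab signalling. Of 41 measured, 5 rose and 9 fell in wild type (34.1% together, against 17.6% of all genes). Between the treated genotypes 5 were higher and 9 lower (34.1% against 19.7%). In Irf3-deficient cells 4 were higher and 2 lower than in PBS-treated wild type (14.6% against 10.8%). Rabgap1l rose by 1.31 (adjusted p = 0.000208), Tbc1d8 by 0.96 (adjusted p = 1.72e-05) and Tbc1d1, known from glucose transporter traffic, by 0.79 (adjusted p = 0.000182). Tbc1d31 fell by 0.88, Tbc1d5, a regulator of Rab7, by a log2 difference of -0.59, and Tbc1d16 by the same. Between the treated genotypes Tbc1d1, Tbc1d14 and Tbc1d8 were lower at -0.61, -0.61 and -0.47, and Tbc1d19, Tbc1d2b and Tbc1d31 were higher by 0.79, 0.76 and 0.70. Against PBS-treated wild type, 3 of the 4 higher ones were Rabgap1l, Tbc1d8 and Tbck. Rabgap1l was 0.94, Tbc1d8 0.48 and Tbck 0.59 higher, and Tbc1d5 and Tbc1d14 were lower at -0.37 and -0.40.

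Of 12 genes that lipidate Rabs or move them between cytosol and membrane, 0 rose and 3 fell in wild type. These were Chml at -0.73 (adjusted p = 0.000845), Gdi2 at -0.48 (adjusted p = 0.00863) and Rabac1 at -0.36 (adjusted p = 0.0399). Gdi2 extracts inactive Rabs from membranes, and Chml and Chm are the escort proteins that present new Rabs for lipid attachment. In Irf3-deficient cells Gdi2 and Chml were higher than in treated wild type by 0.41 and 0.37, while Chm and Yipf4 were lower at -0.61 and -0.65. Together these were 33.3% of the list, against 19.7% of all genes. Chm was also lower than in PBS-treated wild type, at -0.53, the only call there (8.33%, against 10.8% of all genes).

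Of 50 Rab effectors, 9 rose and 6 fell in wild type, a share above the 17.6% of all genes. Between the treated genotypes 3 were higher and 8 lower, a share near the 19.7% of all genes. Between Irf3-deficient and PBS-treated wild type cells 1 was higher and 1 lower, a share below the 10.8% of all genes. Inpp5b and Ocrl, related inositol 5-phosphatases bound by several Rabs, moved in opposite directions. Inpp5b rose by 1.22 (adjusted p = 2.34e-05) and was lower by -0.68 in Irf3-deficient cells, whereas Ocrl fell by 0.90 (adjusted p = 0.00116) and was higher by 0.94 (adjusted p = 0.000411). Plekhm2, which couples lysosomes to kinesin, rose by 1.02 (adjusted p = 3.93e-05) and was lower by -0.91 (adjusted p = 5.64e-05), and Rubcn, the Rubicon protein of phagocytosis and autophagy, was lower at -0.71. The dynein adaptor Bicd2, which binds Rab6, fell by 0.63, and the Rab11 effector Rab11fip5 fell by 0.61 and was 0.40 higher in Irf3-deficient cells. Myo5a, a myosin motor that carries recycling vesicles and granules, was 0.49 higher there.

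Tethers are recruited by Rabs to hold membranes together before fusion. Of 18 listed genes of HOPS, CORVET, the exocyst or related complexes, 1 rose (Exoc6b, 0.34) and 1 fell (Exoc4, -0.34) in wild type. Between the treated genotypes Tgfbrap1 and Vps33b were higher by 0.42 and 0.53 and Exoc7 lower at -0.40. In sum 11.1% of these genes passed in wild type and 16.7% between the treated genotypes, against 17.6% and 19.7% of all genes. Against PBS-treated wild type, 0 were higher and 1 was lower, Exoc7 at -0.41 (5.56%, against 10.8% of all genes). Of 7 Rab-like GTPases, Ift22 rose by 0.75 and Rabl3 by 0.48 and Rabl6 fell by 0.37 in wild type. Between the treated genotypes Cracr2a, Rabl2 and Rabl6 were higher by 0.53, 0.37 and 0.37 and Ift22 was lower at -0.70. Against PBS-treated wild type, Rabl3 was higher by 0.68 and Ift27 lower at -0.49. Shares of these 7 genes were 42.9%, 57.1% and 28.6% in the 3 comparisons, against 17.6%, 19.7% and 10.8% of all genes.

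**Figure D4:**
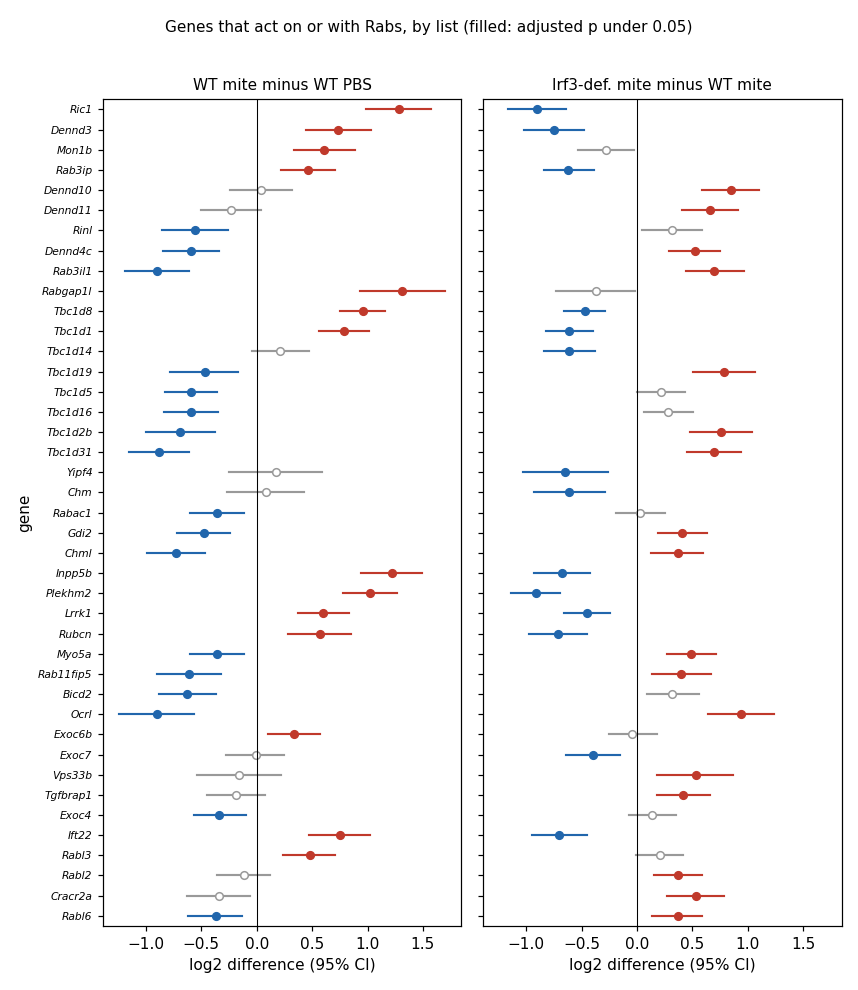
Log2 difference with its 95% confidence interval for genes that act on or with Rabs, up to 3 per direction with the smallest p from each list in the 2 comparisons shown, with filled points for adjusted p under 0.05 (red higher, blue lower). Ric1, Inpp5b and Plekhm2 are higher after mite extract and lower in Irf3-deficient cells, and Rab3il1, Tbc1d31 and Ocrl are the reverse.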

How the data were processed

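The deposited file holds log2 expression values of 35556 probesets from 7 Affymetrix Mouse Gene 1.0 ST arrays. The submitters' processing notes list R 3.2.1, oligo and RMA, without saying which step each served. RMA normally equalises the distributions of the arrays, so a change shared by most transcripts would not be seen, and array medians lay between 7.60 and 7.69. No detection calls, scan dates or batches were given in the sources used here, and the number of arrays limits the precision.

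Probesets were named through the platform annotation (21789 with 1 symbol, 1621 with several, 12146 with none), and symbols were updated by Entrez identifier through RefSeq (GRCm38.p6), which matched 19856 of 19938 genes. The brightest probeset per gene was kept, with no filter on low values. Of the 59 members, 3 had several probesets.

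One mean per group was fitted over all 7 arrays in limma 3.58.1 under R 4.3.3 (eBayes with an intensity trend, 4 residual and 8.34 prior degrees of freedom), two-sided, with Benjamini-Hochberg adjustment over all genes. The fit was also run on simulated data with independent noise, which cannot vouch for the calls on these pools, and its outcome is not used here. The genes named are all members that passed, a fixed panel of members, and up to 3 genes per direction with the smallest p from each list of Rab regulators. Members and lists were chosen with earlier results of these data known. Alternatives were the prior, the scaling, a dim filter, the handling of probesets, fits on the compared groups alone, the sample number as a block, and leaving out each array. A further motif search is not reported here.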

Additional observations from a re-analysis of the deposited data

How the results depend on the processing

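No called member changed direction under any alternative run. Of the calls on Rab genes, 8 of 17 in wild type, 8 of 20 between the treated genotypes and 4 of 8 between Irf3-deficient and PBS-treated wild type cells held under every alternative. Leaving out each array in turn gave 7 to 10 Rab genes higher and 2 to 6 lower in wild type, 3 to 9 and 6 to 11 between the treated genotypes, and 3 to 8 and 2 to 3 in the last comparison. Over all genes the same fits gave 1243 to 1731 higher and 1086 to 1993 lower, 1276 to 2084 and 1286 to 1822, and 479 to 1261 and 270 to 1098. The lowest counts came without replicate 2 of mite-treated wild type (2 lower Rab genes in wild type, 3 higher between the treated genotypes) or without a PBS-treated array. With only the compared groups in the fit, 4 Rab genes were lower in wild type. Deviations of same-numbered arrays from their group means correlated at -0.233 between the wild type groups and at -0.09 to 0.178 in the other pairs, so the numbers were not taken to pair the samples. As a replicate block they left 4 Rab genes lower in wild type, 6 lower between the treated genotypes and 626 genes lower in the last comparison. Crossing the numbers of the wild type arrays, an alternative chosen after seeing the data, gave 14 higher and 7 lower Rab genes. Small differences are limited by the 2 or 3 arrays a group.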

Other observations

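Lrrk1 and Lrrk2, related kinases of which Lrrk2 phosphorylates several Rabs including Rab8, Rab10, Rab12 and Rab29, differed in direction. Lrrk1 stood at 11.22 and 11.22 in PBS-treated wild type, 11.79 and 11.84 in mite-treated wild type, and 11.34, 11.26 and 11.50 in Irf3-deficient arrays. It rose by 0.60 in wild type (adjusted p = 0.00165 in limma) and was lower by -0.45 in Irf3-deficient cells (adjusted p = 0.00521). Lrrk2 stood at 10.53 and 10.27, then 10.06 and 9.51, then 9.81, 9.81 and 9.65. It fell by 0.61 in wild type (adjusted p = 0.022), had a difference of -0.03 in Irf3-deficient against treated wild type cells (adjusted p = 0.949), and was lower by -0.64 in Irf3-deficient than in PBS-treated wild type cells (adjusted p = 0.0174). Of the Rabs named above as targets of Lrrk2, Rab8a, Rab8b, Rab12 and Rab29 rose in wild type and Rab10 did not pass. They are not a full list of its targets, so they do not show how its targets moved as a set.

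The exchange factor Ankrd27, also known as Varp, which serves Rab21 and binds Rab32 and Rab38, rose by 0.45 in wild type (adjusted p = 0.0109) and was lower by -0.58 in Irf3-deficient cells (adjusted p = 0.001). The early endosome tether Eea1 and the adaptor Appl1, both recruited by Rab5, rose by 0.47 and 0.53 (adjusted p = 0.0291 and 0.0201), and Fyco1, an effector of Rab7 that moves late endosomes and autophagosomes along microtubules, rose by 0.52 (adjusted p = 0.0102). Ankrd27, Eea1, Appl1 and Fyco1 were chosen after their values were seen.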
